A study of Mus musculus with 8 samples.

Results

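The nucleolus makes ribosomes, and 45 of its genes were followed here in the submandibular gland of the Dp16 mouse, a model of Down syndrome. They were taken from a list of factors for ribosomal RNA synthesis, processing and subunit assembly, and were matched by symbol among the 54838 genes counted in each library. All 45 were among the 19358 genes that passed the expression filter and were tested. One of them, Urb1, lies in the segment that Dp16 mice carry in an extra copy.

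Bulk RNA was sequenced from glands of male mice, with 4 libraries from Dp16 animals (B6.129S7-Dp(16Lipi-Zbtb21)1Yey/J, on C57BL/6J) and 4 from wild-type C57BL/6J animals (WT). The Dp16 duplication spans Lipi to Zbtb21 on mouse chromosome 16 and is inherited through the germline, so every cell type of the gland has the extra copy. It leaves out the mouse counterparts of human chromosome 21 genes that lie on other mouse chromosomes. Neither group is described as treated, and the labels used here give no ages. The labels do not say whether each library came from a separate animal, so p-values measure only the spread between these libraries.

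Reads counted in genes numbered 90790542 to 111805185 in Dp16 libraries and 97847453 to 115729892 in WT libraries. The salivary secretory gene Mucl2 measured 210320 to 285180 CPM in Dp16 libraries and 234360 to 333960 CPM in WT libraries, while the skeletal muscle markers summed to 0.92 to 1.15 CPM in Dp16 libraries and 1.29 to 1.86 CPM in WT libraries. WT replicate 3 stood apart among WT libraries in Dcpp1, Dcpp2 and Smgc, which were listed here as acinar markers. Reads outside annotated features took 18.4% to 20.8% of reads in Dp16 libraries and 13.8% to 15.9% in WT libraries, without overlap between the groups.

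Ribosome production begins when RNA polymerase I copies the ribosomal DNA into a long precursor. Small nucleolar ribonucleoproteins (snoRNPs) of the box C/D kind guide its methylation and those of the box H/ACA kind guide its pseudouridylation, while assembly factors cut and fold it into the small and the large subunit. In salivary glands, acinar and granular duct cells use their ribosomes to make large amounts of secreted protein.

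The promoters of the 3 members that fell in the test across all genes, Kbtbd8, Ppan and Gnl3, and of the triplicated Urb1 are shown because the results below turn on these genes. They are RefSeq sequences on build GRCm38.p6, running 5′ to 3′ on the gene's strand from 250 bases before the annotated start to 50 bases after it. Capitals mark the letters CCAAT, the CCAAT box, or CCGGAAG, the core bound by ETS factors, on either strand.
Kbtbd8, chr6:95117630-95117929, plus strand: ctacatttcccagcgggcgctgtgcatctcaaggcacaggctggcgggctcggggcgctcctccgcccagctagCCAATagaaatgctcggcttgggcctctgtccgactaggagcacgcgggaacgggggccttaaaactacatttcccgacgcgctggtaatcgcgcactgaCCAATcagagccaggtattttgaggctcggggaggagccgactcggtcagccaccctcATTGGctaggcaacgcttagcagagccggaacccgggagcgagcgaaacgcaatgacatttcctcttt
Ppan, chr9:20887925-20888224, plus strand: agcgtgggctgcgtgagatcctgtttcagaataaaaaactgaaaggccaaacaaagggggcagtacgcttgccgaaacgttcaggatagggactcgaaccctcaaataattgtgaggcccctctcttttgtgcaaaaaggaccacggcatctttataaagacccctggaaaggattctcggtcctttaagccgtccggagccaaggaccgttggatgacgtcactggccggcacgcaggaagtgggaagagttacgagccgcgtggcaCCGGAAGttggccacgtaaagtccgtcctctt
Gnl3, chr14:31019082-31019381, minus strand: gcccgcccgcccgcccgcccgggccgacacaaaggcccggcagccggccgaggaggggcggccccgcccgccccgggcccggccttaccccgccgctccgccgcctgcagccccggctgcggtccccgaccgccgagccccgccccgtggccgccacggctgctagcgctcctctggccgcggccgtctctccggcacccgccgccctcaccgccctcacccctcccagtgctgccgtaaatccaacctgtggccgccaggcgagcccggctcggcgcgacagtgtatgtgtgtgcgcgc
Urb1, chr16:90810364-90810663, minus strand: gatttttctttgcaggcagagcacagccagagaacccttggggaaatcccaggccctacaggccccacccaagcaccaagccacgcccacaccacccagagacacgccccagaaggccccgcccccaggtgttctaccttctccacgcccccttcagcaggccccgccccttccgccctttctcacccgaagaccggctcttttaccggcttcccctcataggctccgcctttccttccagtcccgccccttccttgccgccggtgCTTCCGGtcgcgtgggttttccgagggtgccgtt

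Kbtbd8 held 3 CCAAT matches, with first bases 176, 76 and 18 bases before the start, the last on the complementary strand. Ppan held CCGGAAG 19 bases after the start and Urb1 held it on the complementary strand 17 bases after the start. The Gnl3 window held none of the motifs searched. Among the 38 members with a RefSeq promoter, which have 46 promoters, CCGGAAG was found in 14 promoters (30.4%) of 13 members. Its share was 8.86% of all 32851 promoters and 15.3% of the 15475 promoters of tested genes. Overlapping promoter windows of Noc2l were counted separately. The E-box CACGTG, the letters bound by Myc with Max, was found in 5 member promoters (10.9%), those of Nop2, Utp20, Pes1, Mybbp1a and Wdr43, against 7.15% of all promoters and 9.22% of those of tested genes. CCAAT was found in 12 (26.1%), against 37.4% of all promoters. The palindromic motif of Nrf1 and that of Kaiso were found in 0 of the 46, against 0.971% and 0.466% of all promoters. Both strands were searched and no motif overlapped another in the 4 windows shown. A match describes letters and not binding.

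Levels are counts scaled to library size with TMM factors (CPM), and log2 fold changes are Dp16 over WT from edgeR's quasi-likelihood fit on all genes. The 45 members were chosen with earlier results of these data known, so shares of all genes beside their counts are descriptions only. In Dp16 glands 42 of the 45 members had a negative log2 fold change, against 48.9% of all genes tested. Their median was -0.33, a fold of 0.794, with a range of -0.87 to 0.48, while the median over all genes tested was 0.01 and that over the 14425 protein-coding genes was -0.02. Past a Benjamini-Hochberg adjusted p of 0.05 over all genes, where 0.625% of all genes passed, 3 members fell (6.67%), against 0.155% of all genes, and 0 rose, against 0.47%. At an adjusted p below 0.10, 11 members were lower, against 2.9% of all genes. At an unadjusted p below 0.05, 26 members were lower, against 11.9% of all genes, and 1 was higher, against 12.7%. The 26 became 15 without WT replicate 2, 16 without Dp16 replicate 3 and 17 without WT replicate 4. In those fits, in the same order, 3376, 3507 and 3795 of all genes had an unadjusted p below 0.05 in either direction. The main fit had 2299 lower and 2467 higher. DESeq2, which called 9.78% of the genes it tested, called 13 members lower, against 4.15% of genes, and Urb1 higher, against 5.63%. In limma-voom, which called 2.05% of genes, 4 members were lower, against 0.77% of genes, and 0 were higher, against 1.28%. In bulk tissue, fewer cells of a type and less RNA per cell cannot be told apart.

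**Figure D1:**
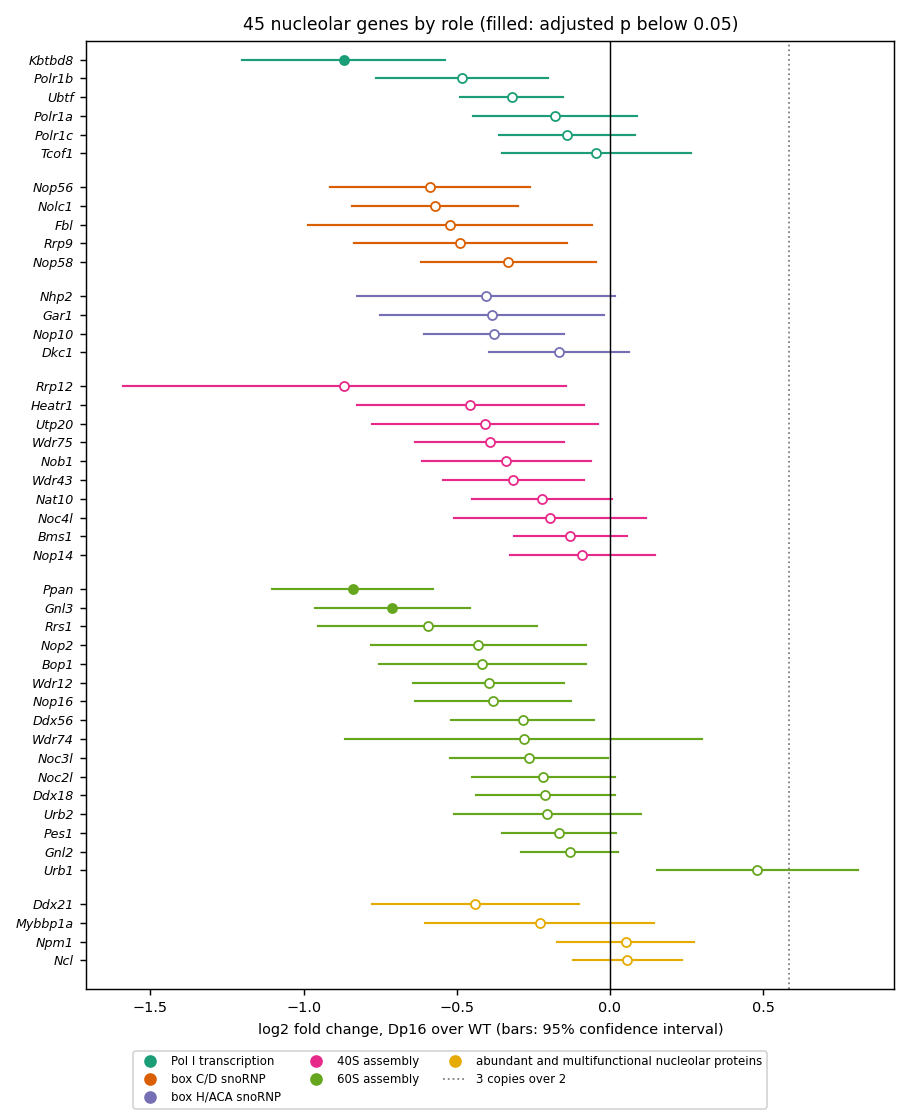
Log2 fold change of each of the 45 members, Dp16 over WT (horizontal axis), with its 95% confidence interval, grouped and coloured by role. Filled points pass an adjusted p of 0.05, the dotted line is the log2 of 3 copies over 2 (0.58), and 42 points lie left of 0.

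All 4 Dp16 libraries lay below the mean of the WT libraries, but the WT libraries also differed among themselves. The median over the 45 members of log2(CPM + 0.1) minus the WT mean was -0.36, -0.19, -0.40 and -0.33 in Dp16 replicates 1 to 4, and -0.23, 0.17, -0.09 and 0.15 in WT replicates 1 to 4. WT replicate 1 was thus below Dp16 replicate 2, and the groups overlapped on this measure. The same median over all genes lay between -0.002 and 0.012 in every library. WT replicate 1 had the lowest WT value for 36 of the 45 members, while WT replicates 2 and 4 had the highest for 21 each. Within Dp16, replicate 2 was the highest for 30 members. Over the members, the ratio of the highest to the lowest library had a median of 1.26 within Dp16 and 1.37 within WT.

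**Figure D2:**
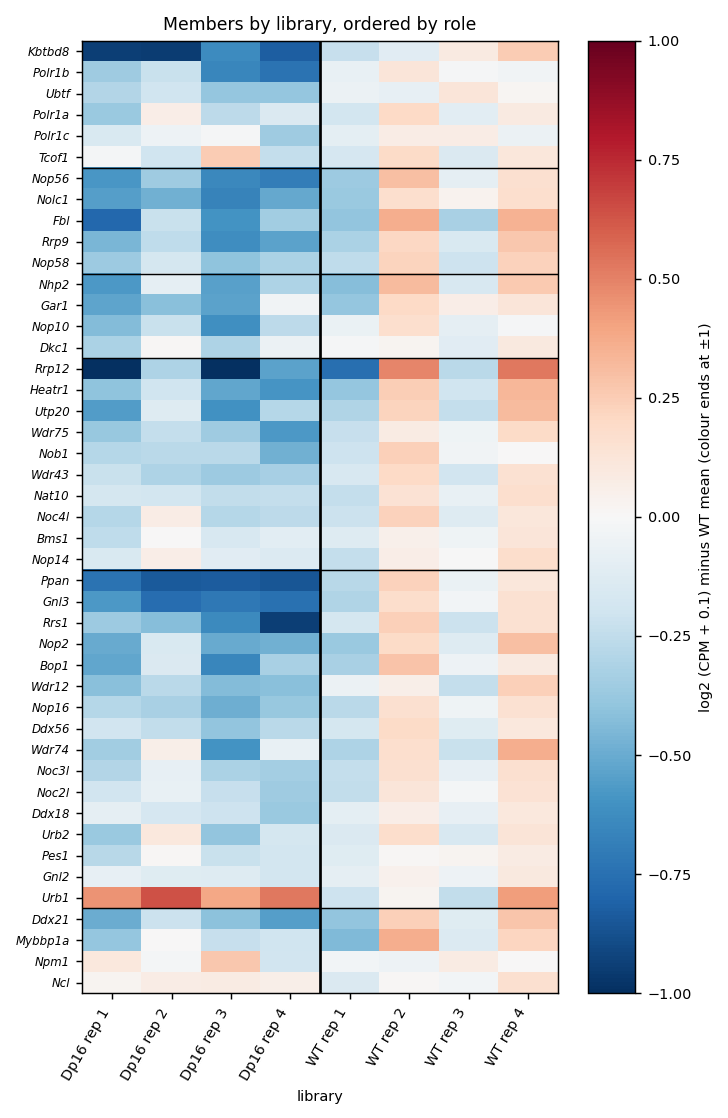
Heat map of log2(CPM + 0.1) minus the WT mean for the 45 members (rows, ordered by role and then by fold change) in the 8 libraries (columns, Dp16 left of the line and WT right of it). Blue is below the WT mean, and the row of Urb1 is red in all 4 Dp16 libraries and in WT replicate 4.

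The Pol I transcription group had negative fold changes in all 6 of its members, with a median of -0.25, and 1 of them fell. Kbtbd8, a substrate adaptor of CUL3 ubiquitin ligases, is placed here because in human cells it attaches ubiquitin to TCOF1 and NOLC1. It measured 2.14, 2.13, 2.68 and 2.32 CPM in Dp16 replicates 1 to 4, against 3.56, 3.88, 4.48 and 5.01 CPM in WT replicates 1 to 4. Every Dp16 library was below every WT library, which held for 14 members (31.1%), against 6.96% of all genes. No member had every Dp16 library above every WT library, against 7.11% of all genes. Kbtbd8 averaged 2.32 ± 0.258 CPM in Dp16 and 4.24 ± 0.644 CPM in WT (SD, n = 4 each), and its log2 fold change was -0.87 (SE 0.147, 95% interval -1.20 to -0.54, edgeR adjusted p = 0.0428). Per kilobase of exon its mean level was 0.455 CPM in Dp16 and 0.832 CPM in WT.

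Ubtf encodes UBF, which binds the ribosomal DNA and recruits the polymerase. Its level was 46.4, 49.6, 43.6 and 43.5 CPM in the Dp16 libraries, against 54.7, 53.9, 62.2 and 57.7 CPM in the WT libraries. The groups did not overlap, yet the log2 fold change of -0.32 (SE 0.075) gave an edgeR adjusted p of 0.0714 and a DESeq2 adjusted p of 0.00867. Polr1b, the second largest subunit of the polymerase, likewise did not overlap between groups, at 9.40, 10.3, 7.64 and 7.18 CPM in Dp16 and 11.5, 13.1, 11.9 and 11.8 CPM in WT. It had a log2 fold change of -0.48 (SE 0.125, edgeR adjusted p = 0.0829). The largest subunit Polr1a (-0.18, adjusted p = 0.369) and Polr1c, a subunit shared with RNA polymerase III (-0.14, adjusted p = 0.398), had smaller differences that did not pass the test. Tcof1, which encodes the nucleolar phosphoprotein treacle, averaged 8.35 ± 1.36 CPM in Dp16 and 8.604 ± 1.09 CPM in WT (SD, n = 4 each; log2 fold change -0.04). Its sign turned on leaving out Dp16 replicate 2 or 4 or WT replicate 2.

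The box C/D group had the most negative median of the 6 roles, -0.52, with all 5 members negative. All 5 were lower at an unadjusted p below 0.05, against 11.9% of all genes, but none passed the adjusted threshold in edgeR. Nolc1, a chaperone of snoRNPs also known as Nopp140, measured 16.3, 17.1, 15.1 and 16.8 CPM in the Dp16 libraries, against 18.5, 27.0, 24.7 and 27.0 CPM in the WT libraries. WT replicate 1 lay close to the Dp16 values, and the groups did not overlap. The log2 fold change was -0.57 (SE 0.121), with an adjusted p of 0.0649 in edgeR, 0.00227 in DESeq2 and 0.0473 in limma-voom.

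Nop56, a core protein of box C/D particles singled out after its values were seen, measured 12.4, 14.5, 11.9 and 11.5 CPM in the Dp16 libraries, against 14.5, 22.9, 17.5 and 20.8 CPM in the WT libraries. Dp16 replicate 2 and WT replicate 1 met at the boundary, and the log2 fold change of -0.59 (SE 0.145) gave an edgeR adjusted p of 0.0781. The partner core protein Nop58 averaged 19.7 ± 1.37 CPM in Dp16 and 24.8 ± 4.52 CPM in WT (SD, n = 4 each). Fbl, the methyltransferase fibrillarin, averaged 8.36 ± 1.45 CPM in Dp16 and 12.0 ± 3.39 CPM in WT (SD, n = 4 each). Rrp9, specific to the U3 snoRNP, had a log2 fold change of -0.49, with adjusted p = 0.115 in edgeR and 0.043 in DESeq2.

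In the box H/ACA group all 4 members were negative, with a median of -0.38, and none passed the adjusted threshold in edgeR. Nop10, a small core protein of these particles, measured 23.1, 26.8, 20.4 and 26.0 CPM in Dp16 and 29.8, 35.1, 29.4 and 30.9 CPM in WT. The groups did not overlap, and its log2 fold change was -0.38 (SE 0.102, edgeR adjusted p = 0.0889). Gar1 (-0.39, adjusted p = 0.186) and Nhp2 (-0.40, adjusted p = 0.219), core proteins of the same particles, had similar differences with a wider spread. Dkc1, the pseudouridine synthase dyskerin, had -0.17 (adjusted p = 0.334). Per kilobase Nop10 was the most abundant member of this group, at a mean of 21.7 CPM in Dp16 and 28.2 CPM in WT.

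Among the small-subunit factors all 10 members were negative, with a median of -0.33, and none passed the adjusted threshold in edgeR. Wdr75 and Wdr43 belong with Heatr1 to the complex that binds the nascent precursor first. Wdr75 measured 16.6, 18.3, 16.9 and 14.4 CPM in Dp16 and 18.4, 22.8, 20.98 and 24.7 CPM in WT, with Dp16 replicate 2 just below WT replicate 1 (log2 fold change -0.39, SE 0.109, edgeR adjusted p = 0.0922). Wdr43 measured 27.8, 26.3, 25.2 and 25.8 CPM in Dp16 and 29.0, 37.4, 28.4 and 36.1 CPM in WT, again without overlap (-0.32, SE 0.102, adjusted p = 0.12). Heatr1 had a log2 fold change of -0.46 (adjusted p = 0.146).

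Rrp12, a factor for maturation and export of the small subunit that was chosen after its values were seen, varied most between libraries within each group. It measured 4.86, 8.87, 4.47 and 7.57 CPM in Dp16 and 6.47, 15.5, 9.11 and 15.9 CPM in WT. WT replicate 1 lay below Dp16 replicates 2 and 4. Its log2 fold change of -0.87 (SE 0.321, 95% interval -1.59 to -0.14) was as large as that of Kbtbd8, and its edgeR adjusted p was 0.152.

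The remaining small-subunit members did not pass the test either. Utp20, a scaffold of the processome, had a log2 fold change of -0.41 (adjusted p = 0.171), and Nob1, the endonuclease of the last cut of the small-subunit RNA, had -0.34 (adjusted p = 0.147) without overlap between groups. Nat10, which acetylates cytidines of that RNA, had -0.22 (adjusted p = 0.215). The GTPase Bms1 (-0.13), Nop14 (-0.09) and its partner in yeast, Noc4l (-0.195), had adjusted p of 0.352, 0.615 and 0.405, in that order.

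The large-subunit factors included both other members that fell and the one with the highest fold change. Of the 16, 15 were negative, with a median of -0.28. At an unadjusted p below 0.05, 9 were lower, against 11.9% of all genes. Ppan, whose yeast counterpart Ssf1 acts in early large-subunit assembly, measured 6.21, 5.79, 5.82 and 5.71 CPM in Dp16 replicates 1 to 4, against 8.61, 12.2, 9.95 and 11.3 CPM in WT replicates 1 to 4. The Dp16 values lay within 1 CPM of each other, all below the lowest WT value. Means were 5.88 ± 0.22 CPM in Dp16 and 10.5 ± 1.59 CPM in WT (SD, n = 4 each), and the log2 fold change was -0.84 (SE 0.117, 95% interval -1.10 to -0.58, edgeR adjusted p = 0.0276).

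Gnl3 encodes nucleostemin, a nucleolar GTPase of large-subunit maturation. Its level was 16.4, 14.4, 14.9 and 14.6 CPM in the Dp16 libraries, against 19.8, 27.7, 23.9 and 27.3 CPM in the WT libraries. As for Ppan, the Dp16 libraries were close together and WT replicate 1 was the lowest WT library. Gnl3 averaged 15.1 ± 0.932 CPM in Dp16 and 24.7 ± 3.65 CPM in WT (SD, n = 4 each), with a log2 fold change of -0.71 (SE 0.112, 95% interval -0.96 to -0.46, edgeR adjusted p = 0.0388). Its related GTPase Gnl2 had -0.13 (adjusted p = 0.272). Gnl3 shares exon sequence with the opposite-strand gene Pbrm1, which had -0.06 (adjusted p = 0.589), and the counting's strand setting is not given in the sources used.

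These 3 calls did not hold in most fits that left out 1 library. Each was lost on leaving out Dp16 replicate 1, 3 or 4 or WT replicate 2, 3 or 4, and Kbtbd8 also without WT replicate 1. In the order given, those fits called 0, 56, 14, 0, 4, 11 and 63 of all genes, against 121 in the main fit. Over the 8 omissions of 1 library the edgeR adjusted p was 0.025 to 0.1 for Ppan, 0.025 to 0.118 for Gnl3 and 0.0457 to 0.134 for Kbtbd8, and their log2 fold changes were -0.94 to -0.76, -0.81 to -0.65 and -0.95 to -0.78, in the same order. DESeq2 and limma-voom called all 3 lower.

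**Figure D3:**
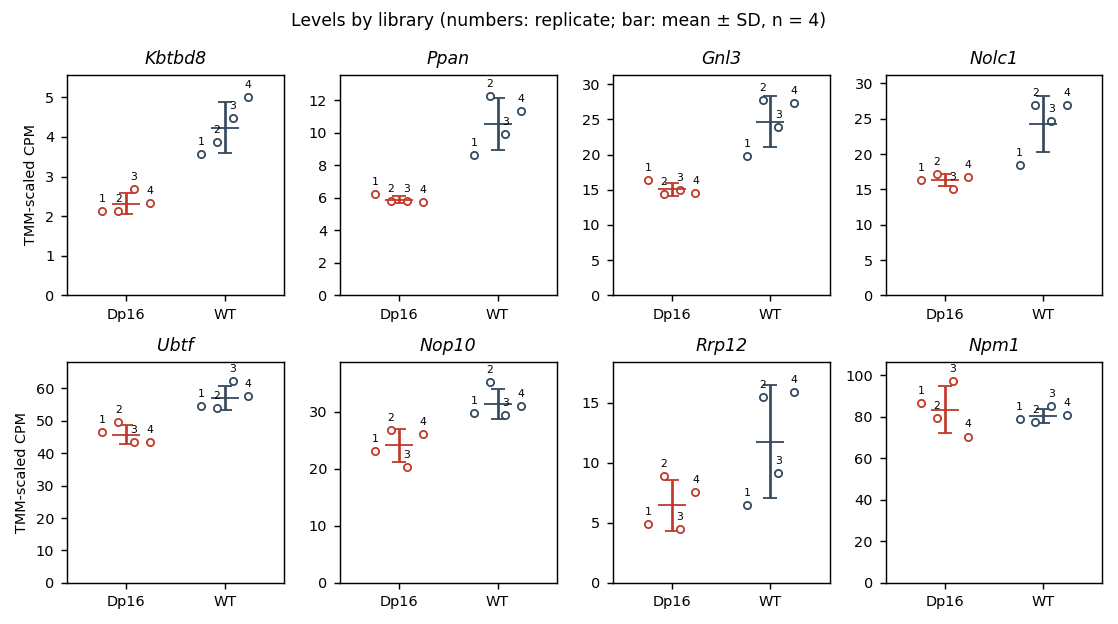
TMM-scaled CPM (vertical axis, from 0) of 8 members in each library, Dp16 left and WT right. Open points are libraries numbered by replicate and bars are the mean ± SD (n = 4). Kbtbd8, Ppan, Gnl3, Nolc1, Ubtf and Nop10 do not overlap between groups, and Rrp12 and Npm1 do.

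Pes1, Bop1 and Wdr12 form one complex of large-subunit assembly, and their differences were uneven. Pes1, the most abundant large-subunit member per kilobase at a mean of 8.3 CPM in Dp16 and 9.31 CPM in WT, measured 23.2, 28.3, 24.1 and 24.8 CPM in Dp16 and 25.9, 28.4, 28.7 and 29.7 CPM in WT. These values overlapped, and the log2 fold change was -0.17 (SE 0.082, edgeR adjusted p = 0.244). Bop1 had -0.42 (adjusted p = 0.146), and Wdr12 had -0.40 (adjusted p = 0.0931) with no overlap between groups. The differences between these 3 fold changes were not tested.

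Rrs1, which in yeast helps to seat the 5S ribonucleoprotein, measured 6.95, 6.66, 5.74 and 4.63 CPM in Dp16 and 7.91, 10.6, 7.70 and 9.98 CPM in WT (log2 fold change -0.59, SE 0.159, edgeR adjusted p = 0.0875). All Dp16 libraries were below all WT libraries, and Dp16 replicate 4 was the lowest. Nop16, another assembly factor, had -0.38 (adjusted p = 0.105) and also did not overlap. Nop2, a cytosine methyltransferase of the large-subunit RNA, had -0.43 (adjusted p = 0.147). The RNA helicases Ddx56 (-0.29) and Ddx18 (-0.21) had adjusted p of 0.147 and 0.229, and Noc3l (-0.26) and Noc2l (-0.22), partners in yeast, had 0.194 and 0.229. Wdr74 had the lowest level of the members, 0.598 ± 0.138 CPM in Dp16 and 0.727 ± 0.185 CPM in WT (SD, n = 4 each; adjusted p = 0.52).

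Urb1, a large scaffold protein whose yeast counterpart acts with Urb2 in early large-subunit assembly, was the one triplicated member, at chr16:90751527-90810413. It measured 20.7, 23.6, 19.8 and 21.8 CPM in Dp16 replicates 1 to 4, against 13.1, 15.4, 12.7 and 20.2 CPM in WT replicates 1 to 4. WT replicate 4 reached the Dp16 range and the other WT libraries were below it. The log2 fold change was 0.48 (SE 0.146, 95% interval 0.15 to 0.81), a fold of 1.40 with an interval of 1.11 to 1.75 that contains the 1.5 of 3 copies over 2. It did not pass in edgeR (adjusted p = 0.109) and passed in DESeq2 (adjusted p = 0.048).

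The partner Urb2, on chromosome 8 and not duplicated, was at 10.4, 14.6, 10.3 and 12.0 CPM in the Dp16 libraries, against 12.2, 15.3, 12.1 and 14.9 CPM in the WT libraries. Its log2 fold change was -0.21 (adjusted p = 0.368), and the groups overlapped. The ratio of Urb1 to Urb2 counts, a measure chosen after the values were seen, was 1.98, 1.61, 1.92 and 1.82 in Dp16 and 1.07, 1.01, 1.05 and 1.36 in WT, so that the groups separated. The mean ratio was 1.83 ± 0.1604 in Dp16 and 1.12 ± 0.162 in WT (SD, n = 4 each; log2 difference 0.71). The lower Urb2 level adds to this difference. An exact permutation of the 8 libraries gave a two-sided p of 0.0286, from 2 of 70 assignments. That is the smallest p that 4 against 4 libraries can give, so any full separation gives it. On leaving out 1 library the permutation p was 0.0286 to 0.0571. Because the measure was chosen after the values were seen, this p is a description and not support. Relative to the median of the other 44 members, Urb1 stood at 1.75, 1.72, 1.72 and 1.83 in Dp16 and 1.03, 0.934, 0.950 and 1.21 in WT.

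**Figure D4:**
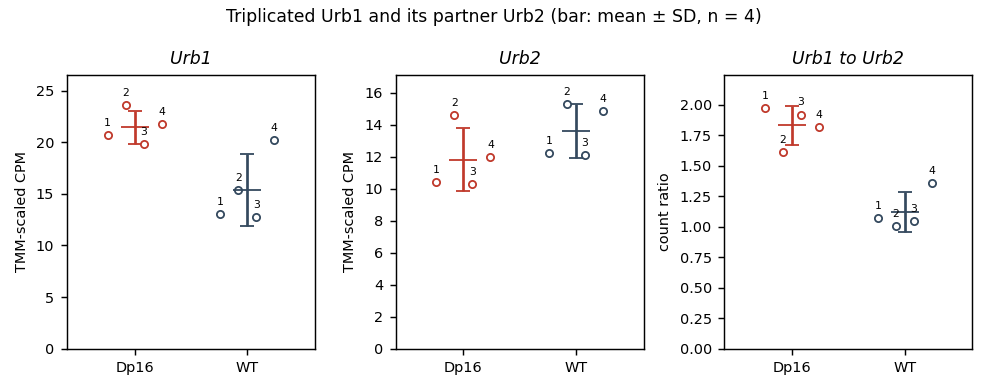
Urb1 and Urb2 levels (TMM-scaled CPM) and the ratio of their counts (vertical axes, from 0) in each library, Dp16 left and WT right. Points are libraries numbered by replicate and bars are the mean ± SD (n = 4). WT replicate 4 reaches the Dp16 range for Urb1 (20.2 CPM) and not for the ratio (1.36).

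The group of abundant, multifunctional nucleolar proteins had a median of -0.09, with 2 of 4 members negative and none past the adjusted threshold in edgeR. Ncl, nucleolin, which was chosen after its values were seen, measured 127, 131, 132 and 129 CPM in Dp16 and 112, 125, 122 and 139 CPM in WT (log2 fold change 0.06, adjusted p = 0.681). Npm1, nucleophosmin, measured 86.7, 79.3, 97.2 and 70.5 CPM in Dp16 and 78.8, 77.5, 85.1 and 80.7 CPM in WT (0.05, adjusted p = 0.776). Both overlapped widely between groups, and Npm1 had the highest level per kilobase of all members, 31.3 CPM in Dp16 and 30.2 CPM in WT. Without Dp16 replicate 3 the log2 fold change of Npm1 was negative, at -0.030, and without WT replicate 1 that of Ncl was -0.00071. Npm1 has processed pseudogenes, so its count is uncertain where reads are shared with them.

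Ddx21, an RNA helicase of ribosomal RNA transcription and processing, measured 37.6, 45.7, 40.01 and 36.2 CPM in Dp16 and 40.3, 62.7, 48.9 and 64.3 CPM in WT. WT replicate 1 lay inside the Dp16 range, and the log2 fold change was -0.44 (SE 0.150, adjusted p = 0.131). Mybbp1a, which binds the Pol I machinery, had -0.23 (adjusted p = 0.411).

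The members are spread over 19 chromosomes and their exon lengths run between 1109 and 11955 bases. Across the 45 members, mean CPM and log2 fold change had a Spearman correlation of 0.25, which is a description over genes that share the same 8 libraries. Inside 7 members, Nop56, Nop58, Dkc1, Wdr43, Ppan, Gnl3 and Ncl, the annotation places 21 snoRNA genes. Of these, 12 overlap an exon of the host, and all 12 had 0 counts in every library, so the counts say nothing of their level. Among the rest, 5 passed the expression filter, 3 of the 5 were negative and 0 were called, against 0.625% of all genes. The group means of these 5 were low, at 0.0798 to 0.272 CPM. For 16 members an exon overlaps an exon of a gene on the opposite strand, and of these opposite-strand genes 11 were tested and 0 called.

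Other genes of ribosome synthesis also had mostly negative log2 fold changes. Of 146 further genes in 6 lists, 143 were tested, 122 were negative and the median was -0.20. Without the Myc, Max and Mxd list, 116 of 134 were negative, with a range of -0.99 to 0.30. Of the 143 genes, 0 passed the adjusted threshold in edgeR, against 0.625% of all genes. At an unadjusted p below 0.05, 43 were lower, against 11.9% of all genes, and 2 higher, against 12.7%. DESeq2 called 13 lower, against 4.15% of genes, and limma-voom 2 lower, against 0.77%. These lists too were chosen with earlier results of these data known. By list, 11 of 15 further Pol I factors were negative (median -0.16), as were 43 of 48 small-subunit factors (-0.21), 41 of 48 large-subunit factors (-0.23), 8 of 10 snoRNP factors (-0.18), 13 of 13 RNA exosome genes (-0.20) and 6 of 9 genes of the Myc, Max and Mxd list (-0.05). The differences between these lists and the 45 members were not tested.

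The genes of smallest p in these lists had log2 fold changes in the range of the members. Nol9, a polynucleotide kinase of large-subunit RNA processing, had -0.39 (edgeR adjusted p = 0.0667, DESeq2 adjusted p = 0.00269). Mphosph10, of the small-subunit processome, had -0.47 (edgeR adjusted p = 0.068, DESeq2 adjusted p = 0.00422). Znrd1, a small subunit of the polymerase, had -0.48 (edgeR adjusted p = 0.0867), and Mlx, a partner of Mondo factors in the Max network, had -0.47 (adjusted p = 0.091). Snu13, which binds box C/D RNA, had -0.34 (adjusted p = 0.147), and the exosome cap protein Exosc3 had -0.29 (adjusted p = 0.153). Myc itself, a known activator of this gene programme, averaged 5.34 ± 0.362 CPM in Dp16 and 5.48 ± 1.22 CPM in WT (SD, n = 4 each; log2 fold change -0.04, adjusted p = 0.906).

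**Figure D5:**
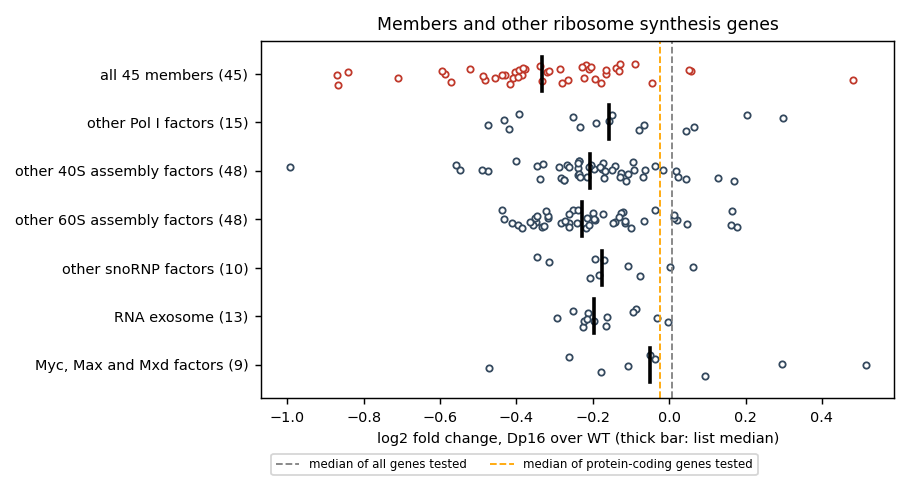
Log2 fold changes, Dp16 over WT (horizontal axis), of the 45 members (red) and of 6 lists of other ribosome synthesis genes (dark points, number tested in brackets), with each list's median as a thick bar. The members' median is -0.33, those of the other lists lie between -0.23 and -0.05, and dashed lines mark the medians of all genes (0.01) and of protein-coding genes (-0.02). Vertical scatter within a list carries no value.

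The libraries were depleted of ribosomal RNA, so transcripts that derive from it measure what was left and not its amount in the cell. Gm26917, at chr17:39843013-39846341, measured 1466, 1366, 1153 and 1102 CPM in Dp16, against 2238, 2561, 2184 and 2266 CPM in WT, and fell (log2 fold change -0.86, SE 0.133, edgeR adjusted p = 0.0378). Gm42418, at chr17:39846958-39848788, measured 4149, 3856, 5314 and 9227 CPM in Dp16, against 1227, 1135, 3654 and 1525 CPM in WT (1.58, SE 0.431, adjusted p = 0.0909). The groups separated for both, in opposite directions, although the loci are neighbours. AY036118 had 0 counts in all 8 libraries, but it lies wholly inside Gm42418, so that this 0 sets no limit on its level. The mitochondrial mt-Rnr1 and mt-Rnr2 had log2 fold changes of 0.04 and -0.05.

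Marker lists for the gland's cells and for cycling cells were read in the same libraries. All 12 genes of the lymphocyte list had positive log2 fold changes (median 2.19), with a summed level of 47.9 to 123 CPM in Dp16 and 30.4 to 39.4 CPM in WT. In edgeR 0 passed the adjusted threshold, against 0.47% of all genes higher. At an unadjusted p below 0.05 all 12 were higher, against 12.7% of all genes, and DESeq2 called 11 higher, against 5.63% of genes. Of the cycling-cell markers 8 of 10 were positive, with a summed level of 6.72 to 22.6 CPM in Dp16 and 6.78 to 17.0 CPM in WT. The 6 acinar markers tested were all negative with a median of -0.75, but Dcpp1 and Dcpp2 only through WT replicate 3. Without that library their log2 fold changes were 1.00 and 1.76, 4 acinar markers were negative and the median was -0.44. For Aqp5 (-0.66), Bhlha15 (-0.83) and Tesc (-0.61) every Dp16 library was below every WT library, against 6.96% of all genes. DESeq2 called these 3 lower, against 4.15% of genes, while edgeR called 0 acinar markers. Mucl2 (-0.24) overlapped between groups. All 5 granular duct markers were negative with a median of -0.60, and Klk1 fell, a call lost on leaving out any library other than Dp16 replicate 2 or 3. The part of these markers, and of the larger share of reads outside features in Dp16, in the members' differences was not tested.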

How the data were processed

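Total RNA of male submandibular glands was isolated with a miRNeasy kit and sequenced as stranded, ribosomal-RNA-depleted TruSeq libraries, per the labels' protocols. FastQC, STAR, HTSeq, DESeq2 and build GRCm38 are named, without versions, in the submitters' processing notes. Neither the annotation release nor the strand setting is given in the sources used here. The authors deposited whole-number counts of reads per gene for each of the 8 libraries. The 5 rows naming no gene held 60.8% to 65.3% of the reads in Dp16 and 58.1% to 65.4% in WT, and were left out. Of 54838 gene IDs, 54723 were matched to symbols in GENCODE M21.

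Counts were analysed with edgeR 4.0.16 (R 4.3.3): filterByExpr, TMM scaling and the quasi-likelihood test of 4 Dp16 against 4 WT libraries over 19358 genes, with Benjamini-Hochberg adjusted p. Scaling factors were 1.00 to 1.19 in Dp16 and 0.872 to 1.00 in WT. Replicates differed beyond counting noise (chi-square per degree of freedom at least 78.4). Alternatives were DESeq2 1.42.0, limma-voom with quality weights (limma 3.58.1), other filters and scalings, a replicate block and omission of each library. The code was tested on simulated data. RefSeq promoters were searched for fixed letters.

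The members and lists were chosen with earlier results of these data known. Members named by rule are Urb1, those called, the member of smallest p and of highest level per kilobase in each role, and the extremes. The remaining members are given outside this rule, among them Nop56, Rrp12 and Ncl, chosen after their values were seen. The gene of smallest p in each other list and the ribosomal RNA transcripts are named too, and Rn18s-rs5 matched no gene.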

Additional observations from a re-analysis of the deposited data

Results flagged for a closer look

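Over 142 groups of 4 libraries, covering the 45 members, the other genes named with values, the acinar markers and the ratio of Urb1 to Urb2 in each genotype, 13 had 1 library standing apart from the others. Chance flags about 1 group in 20. Among the Dp16 libraries, replicate 2 was the highest for Nop14 (13.6 CPM), Noc4l (5.62 CPM), Nop2 (13.6 CPM), Wdr12 (10.8 CPM) and Exosc3 (5.36 CPM), and replicate 4 was the lowest for Nob1 (3.60 CPM). Replicate 2 was also the Dp16 library with the highest value for 30 of the 45 members. For the acinar markers in Dp16, replicate 4 was the highest for Dcpp2 (4.75 CPM) and Smgc (0.475 CPM), and replicate 1 for Bhlha15 (157 CPM). Among the WT libraries, replicate 3 was the highest for Dcpp1 (22.3 CPM), Dcpp2 (70.8 CPM), Smgc (5.15 CPM) and Gm42418 (3654 CPM). The Gm42418 value lay below the lowest Dp16 library at 3856 CPM, and the other WT libraries were between 1135 and 1525 CPM.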

How the results depend on the processing

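The negative median of the members kept its direction under every alternative run, at -0.41 to -0.26 on leaving out 1 library, and 41 to 43 members were negative throughout, a count added after the values were seen. Counts of calls did not hold. Against 121 genes called in all (75.2% of them higher), DESeq2 called 1980 (57.6% higher), limma-voom 396 (62.4% higher), the fit with no filter 223, the fit with a replicate block 776 (46.4% higher) and an adjusted p below 0.10 gave 1308, and leaving out 1 library gave 0 to 446, with 0 without Dp16 replicate 1 or WT replicate 2. In those fits of 0 calls, 3583 and 3376 genes had an unadjusted p below 0.05. Members called lower, 3 in edgeR, were 13 in DESeq2, 9 with the replicate block, 11 at an adjusted p below 0.10 and 0 to 4 on leaving out 1 library. Members called higher, 0 in edgeR, were 1 in DESeq2. Other pathway genes called, 0 in edgeR, were 13 in DESeq2, 2 in limma-voom, 6 with the replicate block, 8 at an adjusted p below 0.10 and 0 to 1 on leaving out 1 library. On leaving out 1 library, log2 fold changes near 0 changed sign: Npm1 gave -0.030 to 0.11, Ncl -0.00071 to 0.11, Tcof1 -0.16 to 0.023, Myc -0.13 to 0.088, mt-Rnr1 -0.025 to 0.091 and mt-Rnr2 -0.10 to 0.0016. Myc was 0.017 in limma-voom. Dcpp1 gave -3.41 to 1.00 and Dcpp2 -5.99 to 1.76, both positive only without WT replicate 3. The ratio of Urb1 to Urb2 gave a log2 difference of 0.67 to 0.81 on leaving out 1 library. Gm26917 had an edgeR adjusted p of 0.0361 to 0.118 on leaving out 1 library. Apart from the ranges given, the causes were not tested. Same-numbered libraries of the 2 genotypes had correlated deviations of 0.0777 to 0.191, and only 2 of 4 Dp16 and 2 of 4 WT libraries correlated best with their own number, so the numbers were not taken to pair the libraries. WT replicate 4 is numbered by its title, and its library name carries the number 5. The block called Nop56, Fbl, Nolc1, Nop10, Utp20 and Rrp12 beside the 3 members called without it.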

Other observations

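Bysl, the bystin of late small-subunit maturation and a gene picked after its values were seen, had the lowest log2 fold change of the other pathway genes, -0.99 (SE 0.289, edgeR adjusted p = 0.102, DESeq2 adjusted p = 0.0119). It measured 3.87, 6.79, 3.53 and 5.30 CPM in Dp16 and 5.68, 13.1, 8.13 and 11.9 CPM in WT. Dp16 replicate 2 lay above WT replicate 1, so the groups overlapped. Rrp1 and Rrp1b, ribosome synthesis genes whose human counterparts lie on chromosome 21 and whose mouse copies lie outside the duplicated segment, had log2 fold changes of -0.14 and -0.09. Gnl3l, the relative of Gnl3, had -0.13 (edgeR adjusted p = 0.520), and Mycl had 0.51 (adjusted p = 0.238).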
